A study of Homo sapiens with 16 samples.

Results

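Histone H3 acetylated at lysine 27 (H3K27ac) was compared with histone H3 acetylated at lysine 9 (H3K9ac) in H69 cells, an SV40-transformed line of human cholangiocytes, after treatment with TGF beta. The comparison rests on 4 of the 16 samples of the series: 2 H3K27ac libraries and 2 H3K9ac libraries, each a ChIP-seq library of cells at passage 30 to 32 given recombinant human TGF beta at 10 ng/ml for 16 h. Locations and genes were sorted by whether peaks of both marks, of H3K27ac alone or of H3K9ac alone had been called there. Libraries of the same marks from vehicle-treated H69 cells (2 of each mark, passage 30 to 32) and 2 SMAD3 libraries from TGF beta-treated H69 cells (replicates 4 and 5, at passages 30 to 32 and 30 to 33) served as side measurements. All groups are the same line, so no other cholangiocyte source was measured, and nothing in the labels ties the replicates to cultures of their own. The p-values therefore measure only the spread between these libraries, which may be technical.

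Acetylation of histone H3 opens chromatin for transcription. H3K27ac is laid down mainly by the acetyltransferases p300 and CBP (genes EP300 and CREBBP) and marks active promoters and active enhancers. H3K9ac is laid down mainly by GCN5 and PCAF (genes KAT2A and KAT2B) and is best known at active promoters. Cholangiocytes line the bile ducts. TGF beta drives them toward matrix production and a fibrogenic state through receptors that phosphorylate SMAD2 and SMAD3, which enter the nucleus with SMAD4 and recruit acetyltransferases.

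The replicate 1 libraries of both marks in treated cells ran on lane 7 and the replicate 2 libraries on lane 8, so each replicate pair is also a within-lane comparison. On the autosomes and X, the H3K27ac libraries held 92714 and 90092 peaks covering 65.1 and 63.8 Mb, and the H3K9ac libraries held 54682 and 56825 peaks covering 36.7 and 41.7 Mb. Only peaks were used, and the number of reads behind them is unknown. In bulk chromatin, fewer cells with a mark and less mark per cell cannot be told apart. H3K27ac covered more of the genome (64.4 ± 0.965 Mb against 39.2 ± 3.53 Mb, mean ± SD, n = 2 libraries each). The groups did not overlap, and the exact two-sided permutation p of 0.333 is the smallest that 2 against 2 libraries can give.

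Over all starts, those with H3K27ac only had a lower median number of CpG dinucleotides than those with both marks or H3K9ac only. As examples, not all of which follow that median, the 150 bases upstream of the start are printed for the highest-ranked genes of each class, by the score of their peaks. CpG dinucleotides are in capitals, and the sequences are from RefSeq, build GRCh38.p14. Starts with both marks:
KMT2E, chr7:105014055-105014204 (+ strand): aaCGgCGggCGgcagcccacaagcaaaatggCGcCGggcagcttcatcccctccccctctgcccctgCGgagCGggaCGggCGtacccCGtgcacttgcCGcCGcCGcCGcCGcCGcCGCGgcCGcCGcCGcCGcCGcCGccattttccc
LOC124905135, chr22:46044494-46044643 (+ strand): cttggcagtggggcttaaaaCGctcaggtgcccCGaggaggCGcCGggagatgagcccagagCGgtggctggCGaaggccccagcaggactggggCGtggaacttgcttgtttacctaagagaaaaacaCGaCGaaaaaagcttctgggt
MFSD11, chr17:76737969-76738118 (+ strand): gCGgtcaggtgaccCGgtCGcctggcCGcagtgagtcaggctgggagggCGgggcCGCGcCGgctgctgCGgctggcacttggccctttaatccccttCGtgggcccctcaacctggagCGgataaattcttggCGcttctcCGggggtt
Starts with H3K27ac only:
S1PR4, chr19:3178619-3178768 (+ strand): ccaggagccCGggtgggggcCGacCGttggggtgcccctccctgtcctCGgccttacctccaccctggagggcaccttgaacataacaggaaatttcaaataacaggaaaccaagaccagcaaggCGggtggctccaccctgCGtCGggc
TNFRSF6B, chr20:63696502-63696651 (+ strand): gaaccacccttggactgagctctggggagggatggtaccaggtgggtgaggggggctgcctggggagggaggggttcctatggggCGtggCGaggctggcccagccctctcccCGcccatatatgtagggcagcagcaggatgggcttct
ACTBL2, chr5:57482812-57482961 (- strand): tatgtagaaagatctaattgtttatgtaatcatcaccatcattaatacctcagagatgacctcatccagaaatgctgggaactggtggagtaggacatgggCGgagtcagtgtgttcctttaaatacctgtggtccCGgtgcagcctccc
Starts with H3K9ac only:
LOC128966684, chr17:36182460-36182609 (+ strand): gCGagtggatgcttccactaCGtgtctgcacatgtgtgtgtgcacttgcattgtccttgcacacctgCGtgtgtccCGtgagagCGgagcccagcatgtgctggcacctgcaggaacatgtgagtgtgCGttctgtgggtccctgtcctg
ETV2, chr19:35641595-35641744 (+ strand): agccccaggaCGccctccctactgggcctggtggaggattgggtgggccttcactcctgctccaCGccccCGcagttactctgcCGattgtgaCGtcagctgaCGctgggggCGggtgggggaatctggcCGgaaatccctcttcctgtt
TMEM121, chr14:105526955-105527104 (+ strand): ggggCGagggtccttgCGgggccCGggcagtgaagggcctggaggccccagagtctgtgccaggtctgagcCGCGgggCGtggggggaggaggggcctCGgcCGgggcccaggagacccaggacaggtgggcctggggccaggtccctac
The printed stretch of KMT2E, a regulator of transcription of the lysine methyltransferase 2 family, holds 24 CpG dinucleotides. The stretch of MFSD11, a transporter-like membrane protein, holds 13. That of LOC124905135 holds 9. Of the genes with H3K27ac only, S1PR4, a sphingosine 1-phosphate receptor, holds 7, TNFRSF6B, a secreted decoy receptor, 3, and ACTBL2, a gene similar to beta-actin, 2. Of those with H3K9ac only, ETV2, an ETS family transcription factor, and TMEM121, a membrane protein, hold 8 each, and LOC128966684 holds 6. S1PR4 therefore holds more than LOC128966684, and in the 300-base window around the start it holds 17 against 13 at LOC128966684 and 9 at ETV2.

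Merging the peaks of the 4 treated libraries wherever they overlapped by at least 1 base gave 100386 regions. Both marks were called in all 4 libraries at 31903 of them (31.8%), which together covered 52.6 Mb. H3K27ac alone, called in both of its libraries and in neither H3K9ac library, occupied 28946 regions (28.8%) covering 14.6 Mb. H3K9ac alone occupied 4069 regions (4.05%) covering 1.90 Mb. The other 35468 regions were called in an uneven set of libraries, 24629 of them in a single H3K27ac library, and were left unsettled. Where a mark is named as absent, no peak was called. Regions with a single mark were short and held peaks of middling score: the median length was 1289 bases with both marks, 413 with H3K27ac only and 361 with H3K9ac only. Their best peaks stood at median percentiles of 40.7 and 39.5 among the H3K27ac peaks of their library and of 34.1 and 40.8 among the H3K9ac peaks, whereas regions with both marks stood at 81.8 and 81.5 (H3K27ac) and at 67.7 and 70.3 (H3K9ac).

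The 2 kinds of single-mark region lay in different places. Of the regions with both marks, 52.5% lay within 1 kb of a gene start. Of the regions with H3K9ac only, 45.7% did (1860 regions). Of the regions with H3K27ac only, 2.77% did (803 regions), while 54.8% lay elsewhere inside a gene and 42.4% outside genes. Exons and introns were not told apart, since no gene model with exons was used. The median distance to the nearest start was 0.418 kb with both marks, 1.27 kb with H3K9ac only and 32.2 kb with H3K27ac only. Both replicate pairs showed it on their own. In the lane 7 pair, 3.55% of 53015 H3K27ac-only regions and 41.1% of 7499 H3K9ac-only regions were near a start, and in the lane 8 pair 2.96% of 47654 and 36.2% of 8990. Over whole libraries, 23.3 ± 0.0264% of H3K27ac peaks and 40.2 ± 2.35% of H3K9ac peaks lay near a start (mean ± SD, n = 2 each, exact permutation p = 0.333). The counts depend on the rules. With every library cut to its 54682 highest-scoring peaks, 11378 regions held H3K27ac only and 5804 H3K9ac only, and with peaks up to 500 bases apart merged the counts were 21242 (both), 11968 (H3K27ac only) and 2438 (H3K9ac only). With only 1 library required for H3K27ac, the H3K27ac-only count was 46335 without replicate 1 and 48198 without replicate 2, and with 1 required for H3K9ac the H3K9ac-only count was 7665 without replicate 1 and 6583 without replicate 2.

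**Figure D1:**
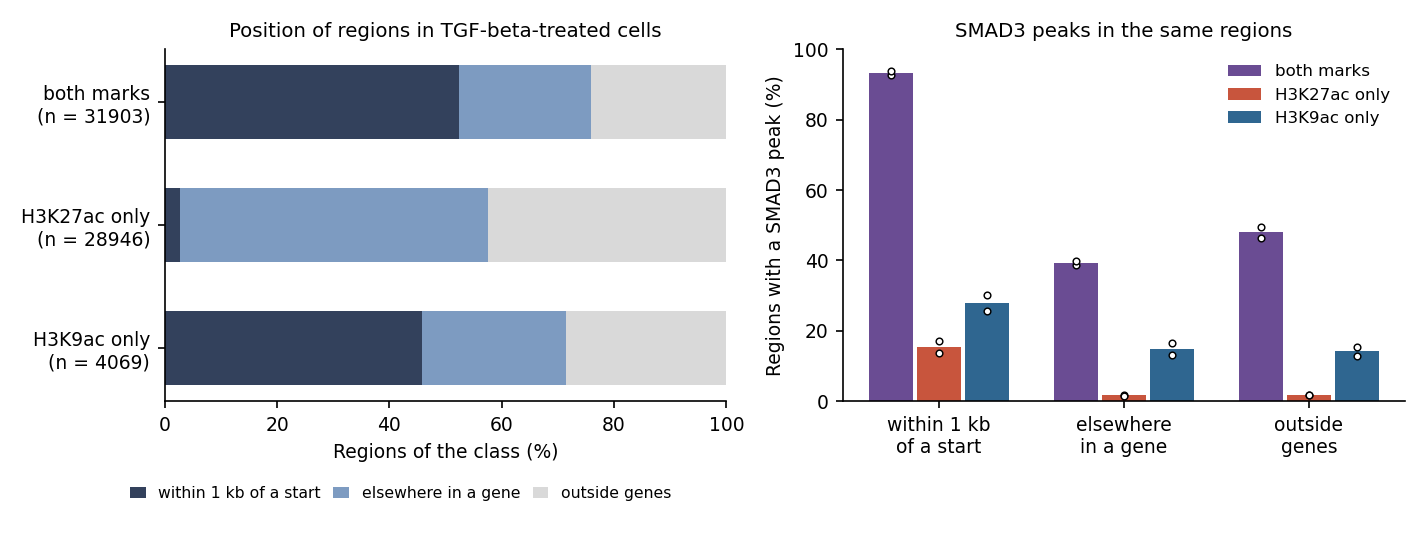
Left, the share of regions (%) of each class in TGF beta-treated cells by position, as stacked bars. Right, the share of the same regions (%) that hold a SMAD3 peak, by position, with bars at the mean of the 2 SMAD3 libraries of treated cells and open points at each library. H3K27ac-only regions are nearly all away from starts (2.77% near) and hold the fewest SMAD3 peaks at each position.

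SMAD3, the DNA-binding effector of TGF beta signalling, was measured in other libraries of treated cells, all on lane 8, and played no part in the classes. A SMAD3 peak was present in both SMAD3 libraries at 65.9% of regions with both marks, at 15.8% with H3K9ac only and at 1.22% with H3K27ac only. Position did not remove the order. Near starts the shares were 91.7% (both), 22.5% (H3K9ac only) and 11.1% (H3K27ac only). Outside genes they were 41.6%, 10.1% and 0.986%. Region length moved with these shares too, and its part in them was not tested. Among regions of 250 to 500 bases away from starts SMAD3 was found in both libraries at 28.4% of 1647 with both marks, 8.35% of 982 with H3K9ac only and 0.840% of 12969 with H3K27ac only. Near starts, among regions of up to 250 bases, the shares with H3K27ac only (12.8% of 172) and H3K9ac only (11.8% of 357) were close and in the reverse order. Peak score was lower in the single-mark regions, as given above, and its part in the SMAD3 shares was not tested.

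In vehicle-treated cells, 86.0% of the regions with both marks also carried both marks in all 4 libraries. Of the H3K9ac-only regions, 79.5% held H3K9ac in both vehicle libraries and 6.34% in neither. The H3K27ac-only regions were the least often found in vehicle cells: 48.6% held H3K27ac in both vehicle libraries and 36.0% in neither. At 1839 of them (6.35%) both vehicle H3K9ac libraries had a peak, and at 225 of the H3K9ac-only regions (5.53%) both vehicle H3K27ac libraries had a peak. These shares were not tested, and all vehicle libraries of the marks ran on lane 7. The vehicle H3K27ac libraries held 82259 and 83429 peaks, fewer than the 92714 and 90092 of treated cells. The vehicle H3K9ac libraries held 61297 and 55069, against 54682 and 56825. The part of peak number in the shares was not tested either. H3K27ac-only regions also lay near shared ones, with a median of 6.11 kb to the closest region with both marks and 35.1% within 2 kb of one. For H3K9ac-only regions the median was 17.1 kb and the share 29.98%.

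Most H3K9ac lay inside H3K27ac, and much H3K27ac lay outside H3K9ac. In the lane 7 pair, 84.8% of H3K9ac peak length fell inside H3K27ac peaks and 47.8% of H3K27ac length inside H3K9ac peaks. In the lane 8 pair the shares were 81.2% and 53.1%. The overlap between the marks (shared length over the length covered by either) was 0.440 and 0.473, below the overlap of the 2 H3K27ac libraries (0.778) and of the 2 H3K9ac libraries (0.798). In vehicle cells the 2 pairs of marks overlapped by 0.508 and 0.468, a range that holds 1 of the 2 treated values.

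Within regions that carried both marks, the mark that extended farther depended on position. Near starts, H3K9ac covered a median of 1164 and 1243 bases and H3K27ac 1034 and 1021 bases, and H3K27ac was the longer mark in 41.8% and 29.0% of the 16739 regions (replicates 1 and 2). Away from starts, H3K27ac covered a median of 1115 and 1101 bases and H3K9ac 472 and 572 bases, and H3K27ac was the longer mark in 84.6% and 79.9% of the 15164 regions. Both marks extended farther into the gene than upstream of it. At the 13191 starts with both marks, the peak length in the 5 kb downstream was 1.29 times that in the 5 kb upstream in both H3K27ac libraries and 1.47 and 1.44 times in the H3K9ac libraries. The 2 H3K9ac libraries were above both H3K27ac libraries in this ratio.

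**Figure D2:**
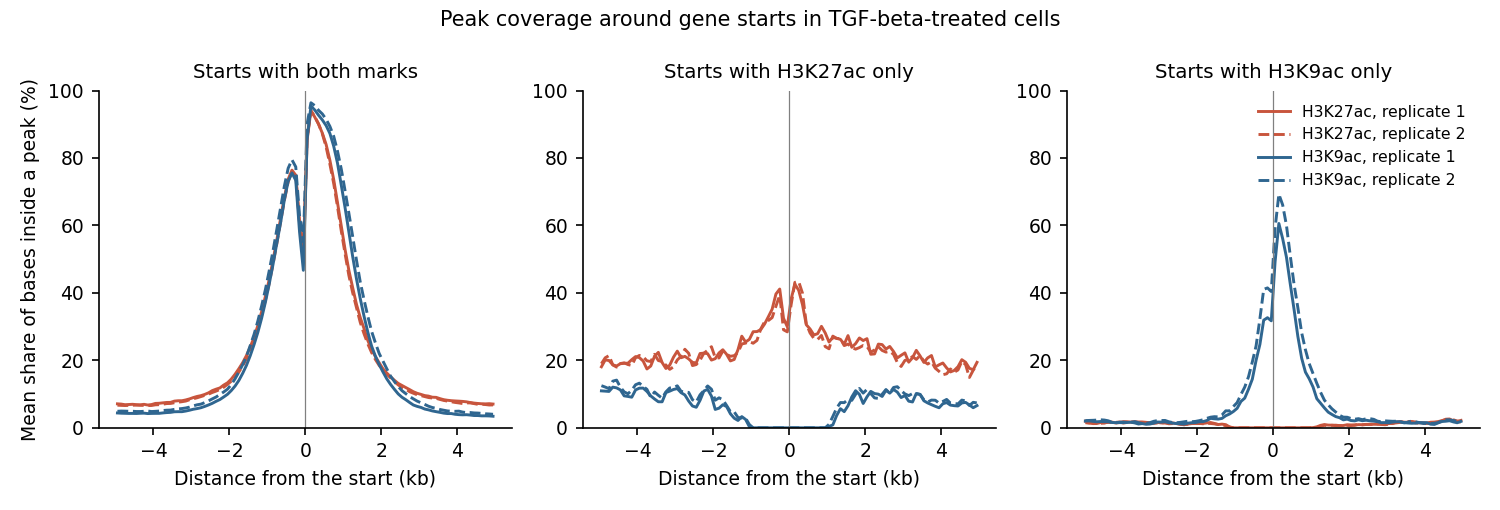
Mean share of bases (%) inside a peak in 100-base steps against the distance from the start in kb (negative values upstream), for starts of each class, with 1 line per treated library. At starts with both marks the H3K9ac lines stay higher than the H3K27ac lines between 1 and 1.5 kb downstream. The H3K27ac lines of H3K27ac-only starts lie below those of starts with both marks within 1 kb. Toward 5 kb on each side they lie above them. Within 1 kb of the single-mark starts the other mark is at 0 by definition.

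Genes were classed by peaks within 1 kb of any of their starts, for the 15811 protein-coding genes with a RefSeq start sequence. A gene classed with both marks can therefore also have starts that lack 1 or both of them. Both marks were called at 9984 genes (63.1% of those classed), H3K9ac only at 738 (4.67%) and H3K27ac only at 70 (0.443%). No peak of either mark lay at 4643 genes, and 376 were unsettled. The single-library rule gave 130 and 87 genes with H3K27ac only and 826 and 952 with H3K9ac only in the lane 7 and lane 8 pairs. The H3K27ac-only count also moved with the setting: it was 34 with equal peak numbers and 106 with a window of 2.5 kb. SMAD3 peaks in both SMAD3 libraries were present at 97.5% of genes with both marks, 26.3% of those with H3K9ac only (194 genes), 7.14% of those with H3K27ac only (5 genes) and 1.08% of those with no mark.

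Most genes with both marks were in the same class in vehicle cells, where 9803 of the 9984 had both marks and 4 had no peak. Those 4 were BIRC7, CGB8, CSF1R and R3HDML, named after their values were seen. CSF1R, the receptor for colony stimulating factor 1 on macrophages, had 1762 and 1766 bases of H3K27ac and 734 and 1057 bases of H3K9ac around its starts after treatment and 0 in the 4 vehicle libraries. At R3HDML the values were 1725 and 1897 bases and 855 and 800 bases, at CGB8, a chorionic gonadotropin beta gene, 1127 and 1145 bases and 298 and 371 bases, and at BIRC7, an inhibitor of apoptosis protein, 387 and 342 bases and 357 and 378 bases. CGB8 has near-identical neighbours, so reads could be split or shared among the copies. The H3K9ac-only class was also largely the same in vehicle cells, with 599 of 738 genes in the same class in vehicle cells and 24 without a peak. Of the 70 H3K27ac-only genes, 14 were in the same class in vehicle cells, 12 had both marks, 23 had no peak and 21 were unsettled.

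The H3K27ac-only starts with the highest scores belonged to S1PR4, TNFRSF6B, ACTBL2, CGB5 and IL24. At TNFRSF6B, H3K27ac covered 1921 and 2001 bases of the 2001-base window and H3K9ac none, while vehicle cells had 277 and 154 bases of H3K9ac there. Both SMAD3 libraries covered the whole window. At ACTBL2 H3K27ac covered 1236 and 1294 bases, and at IL24, a cytokine of the interleukin 10 family, 802 and 804 bases. CGB5, another chorionic gonadotropin beta gene with near-identical copies, had 758 and 621 bases after treatment and 0 in the 4 vehicle libraries. The S1PR4 peaks reached only 409 and 3 bases into the window, so in replicate 2 its class rests on the edge of a peak. The other 4 H3K27ac-only genes with SMAD3 in both libraries, named after their values were seen, were BRICD5, BST2, IL21R and SPATA25. Among genes on the lists, LAMA3 (the laminin alpha 3 chain of epithelial basement membrane), BATF (an AP-1 family transcription factor), FGB and FGG (fibrinogen chains) had H3K27ac only at their starts.

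Among the highest-scoring H3K9ac-only starts, TMEM121 had 1899 and 1869 bases of H3K9ac and LOC128966684 had 839 and 979 bases. At FGD3, an exchange factor for CDC42, H3K9ac covered 637 and 663 bases, and at ETV2 only 64 and 167 bases. None of these starts held H3K27ac in treated cells. Members of the lists with H3K9ac only at their starts were LDLRAD4 (an inhibitor of TGF beta signalling), CRB3 and DSC2 (epithelial polarity and desmosome genes), ONECUT1 and ONECUT2 (biliary and hepatic transcription factors), PROM1 (a progenitor surface antigen), CD8A and GAD1.

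The median number of CpG dinucleotides was the same at starts with both marks and with H3K9ac only, and lower at starts with H3K27ac only. Over 22011 starts, the 300-base window from 250 bases before to 50 after the start held a median of 27 CpG dinucleotides at the 13191 starts with both marks, 27 at the 1025 with H3K9ac only, 4 at the 157 with H3K27ac only and 5 at the 7043 with no peak. The median GC content was 66.0%, 69%, 50% and 51.7% in the same order. H3K27ac only was found at 2.25% of the 4006 starts with under 5 CpG and at 0.0314% of the 6370 starts with at least 30, whereas H3K9ac only was found at 1.02% and 6.77%. Starts of 1 gene can share bases and are not independent, and these shares were not tested.

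**Figure D3:**
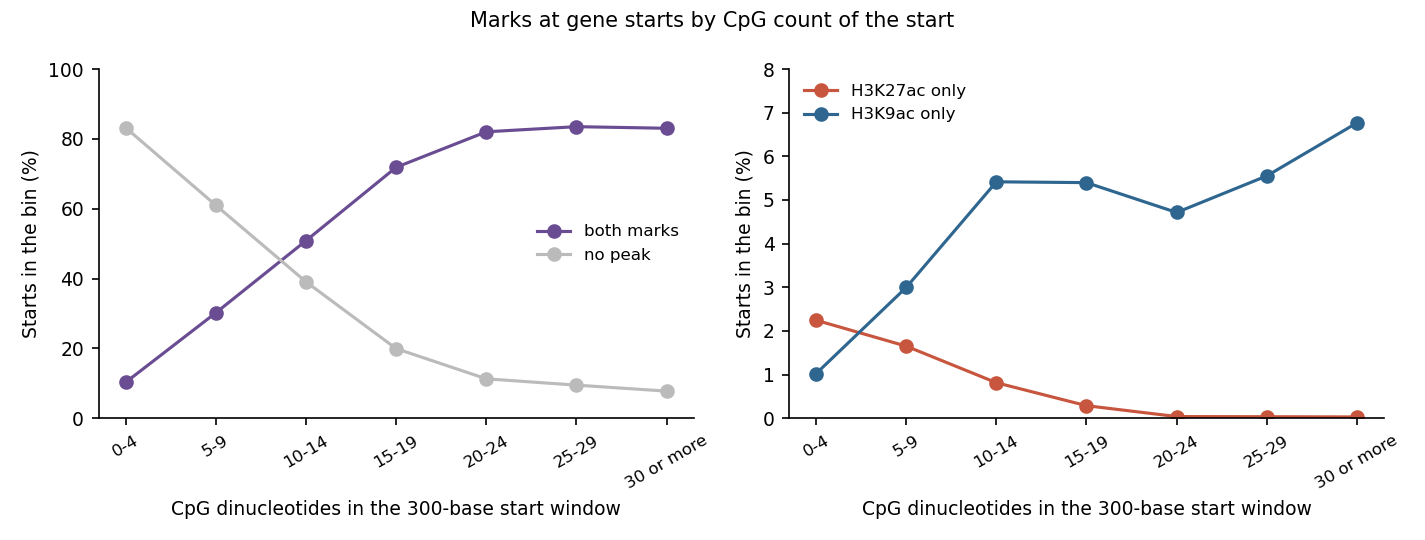
Share of starts (%) of each class against the number of CpG dinucleotides in the 300-base start window, with points for bins of starts. Left, starts with both marks (from 10.3% to 83.0% between the lowest and highest bin) and with no peak; right, on a smaller axis, starts with a single mark, where H3K27ac only falls from 2.25% and H3K9ac only climbs to 6.77%.

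Short motifs were counted in the same windows on both strands. GGGCGG, the core of the SP1 site, was present at 72.0% of starts with both marks, 71.6% with H3K9ac only and 16.6% with H3K27ac only. Its shares were 25.5% with no peak and 56.3% of all starts. TATAAA was present at 4.97%, 6.83%, 10.8%, 18.3% and 9.49% in the same order. TGACTCA, the AP-1 site, which reads TGAGTCA on the other strand, was present at 24 of 157 starts with H3K27ac only (15.3%), against 3.02% with both marks, 2.44% with H3K9ac only, 5.69% with no peak and 4.02% of all starts. CAGACA, which contains the SMAD-binding CAGA box, was present at 26.1% of H3K27ac-only starts, 15.02% of H3K9ac-only starts, 12.2% of starts with both marks, 20.7% of starts with no peak and 15.2% of all starts. CCAAT was present at 36.9% with H3K27ac only, 25.4% with H3K9ac only, 35.1% with both marks and 35.6% with no peak. No motif contains another, though the end of TGACTCA and the beginning of CAGACA can share letters, and a match is only a string of letters. The H3K27ac-only starts of LAMA3, and of SERPINB7, a serine protease inhibitor of the serpin B family, are printed as examples chosen after their values were seen, with the motif in capitals:
LAMA3, chr18:23872865-23872987 (+ strand): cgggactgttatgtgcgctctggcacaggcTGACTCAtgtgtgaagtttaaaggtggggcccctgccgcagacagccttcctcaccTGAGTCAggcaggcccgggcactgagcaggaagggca
SERPINB7, chr18:63775349-63775415 (+ strand): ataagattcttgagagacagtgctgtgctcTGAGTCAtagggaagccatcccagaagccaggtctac
LAMA3 holds the motif once in each spelling, the nearer one beginning 69 bases before the start. H3K27ac covered 647 and 817 bases around this start in treated cells, and neither mark had a peak there in vehicle cells. At SERPINB7 the motif begins 39 bases before the start, and H3K27ac covered 674 and 991 bases in treated cells and 147 and 0 in vehicle cells. SMAD3 had no peak at either start. Not all H3K27ac-only starts with the motif gained H3K27ac. At KCNJ16 it covered 179 and 159 bases in treated cells and 595 and 1231 in vehicle cells.

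Some genes were nearest to many H3K27ac-only regions. Within 50 kb of a gene, 1119 genes were nearest to at least 5 H3K27ac-only regions, 915 to at least 5 regions with both marks and 5 to at least 5 H3K9ac-only regions. The gene with the most H3K27ac-only regions was BCAR3, an adaptor of integrin signalling, which had 54 beside 15 with both marks. TNS3, which ties integrins to actin, had 42, of which 23 held no H3K27ac peak in vehicle cells. SMAD3 itself had 33 beside 16 with both marks, SH3BP4, an endocytosis protein, had 32, and CRIM1, a transmembrane binder of BMP ligands, had 28. None of these 5 genes had an H3K9ac-only region. Long genes offer more room for regions, and no correction was made for it.

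The longest H3K27ac-only regions lay at HIPK2, a kinase, in the gene at chromosome 7, 139733653 to 139738436 (4.78 kb), and at ARHGEF2, a RhoA exchange factor (3.94 kb, 0.579 kb from a start). The focal adhesion gene PXN held 2 of the 8 longest, of 3.74 and 3.58 kb on chromosome 12. At the HIPK2 region H3K27ac was already 3.82 and 4.60 kb long in vehicle cells, and H3K9ac was 0 in all 4 H3K9ac libraries. No SMAD3 peak lay in any of the 8 longest H3K27ac-only regions. The longest region with both marks covered 31.1 kb at LOC124905135 on chromosome 22 (46061161 to 46092298). A 25.2 kb region lay 116 kb from the start of HIF1A, the hypoxia-inducible factor gene, and 23.4 and 22.9 kb regions lay at TNS4, a tensin, and at ITGA3, the integrin alpha 3 gene.

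H3K9ac-only regions were spread thinly, with 3604 of them nearest to 2813 genes, against 18024 H3K27ac-only regions nearest to 5932 genes. TBX2, a T-box transcription factor, had 7, LHX2, a LIM homeobox transcription factor, had 6, and KIF26B, MEIS3 and SFMBT2 had 5 each. The longest lay at NOL4L (2.93 kb), beside HSPB1 (2.89 kb), at MYCN, a MYC family transcription factor (2.65 kb, chromosome 2, 15940391 to 15943043), and at ICAM5 (2.61 kb). The MYCN region was 2.37 and 2.53 kb long in the vehicle H3K9ac libraries and held no H3K27ac in any of the 4 H3K27ac libraries. Each of the 8 longest H3K9ac-only regions held a SMAD3 peak in both SMAD3 libraries, of 0.161 and 0.192 kb at MYCN.

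Per gene, the peak length of each mark was summed over the gene with 10 kb on each side, and the marks were compared by limma on log2(bases + 500) after centring each library on its median. Among 14441 genes with enough peak length, 4670 (32.3%, at 3199 separate loci) were called toward H3K27ac and 5296 (36.7%, at 3214 loci) toward H3K9ac at a Benjamini-Hochberg adjusted p under 0.05. A call says that the mark is longer there relative to the typical gene, since H3K27ac is longer in total. Without centring, which moved the median difference by 0.0853, 4813 were called toward H3K27ac and 3328 toward H3K9ac, and the share of calls toward H3K27ac was 59.1% instead of 46.9%. A log2 difference of at least 1 was reached by 1508 genes toward H3K27ac and 561 toward H3K9ac. All 4670 genes called toward H3K27ac and 5100 of those called toward H3K9ac had non-overlapping libraries. The calls rest on the same 4 libraries, so this adds no separate support. The share of such genes among all 14441 tested is not given.

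The balance moved with gene length. Of genes over 100 kb, 53.4% were called toward H3K27ac and 24.8% toward H3K9ac. Of genes under 10 kb, 21.7% and 42.6% were. The differences given for lists below carry this relation, and its part in them was not tested.

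The genes named here, among those with the largest differences toward H3K27ac, carried almost no H3K9ac. At MUSK, a receptor kinase of the neuromuscular junction (chromosome 9, 110668791 to 110806558), H3K27ac covered 6.94 and 7.30 kb and H3K9ac 0 and 0.194 kb (log2 difference 3.61, SE 0.120, limma adjusted p = 6.17e-06). At CUZD1 (chromosome 10, 122832158 to 122845857) H3K27ac covered 4.85 and 4.72 kb and H3K9ac had no peak in either library (log2 difference 3.32, SE 0.0759, limma adjusted p = 6.17e-06). The X-linked FRMPD4, a scaffold protein, had 5.51 and 5.37 kb against 0 and 0.193 kb. FGB, the fibrinogen beta chain, had 4.41 and 3.85 kb against 0, and ZBED2, a zinc finger factor, 3.56 and 4.16 kb against 0. RAMACL and MYO18B had log2 differences of 3.10 and 3.02. The 2 libraries of each mark lay close together at these genes and the marks did not overlap. SMAD3 peaks were at 0 in both SMAD3 libraries at each of them except MYO18B, which had 0.179 and 0.183 kb. Where a mark is at 0, the size of the difference depends on the 500 bases added.

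The largest differences toward H3K9ac included 4 developmental regulators with H3K27ac at or near 0. MYCN (chromosome 2, 15940550 to 15947004) had 3.07 and 3.39 kb of H3K9ac and no H3K27ac (log2 difference -2.98, SE 0.0681, limma adjusted p = 6.17e-06). TBX2 (chromosome 17, 61399843 to 61409466) had 3.43 and 4.41 kb against 0.145 and 0.164 kb (log2 difference -2.83, SE 0.0886, limma adjusted p = 6.17e-06). FOXD1, a forkhead transcription factor, had 2.28 and 3.04 kb against 0, and WNT11, a WNT ligand, 2.16 and 2.78 kb against 0. STAC3, a muscle calcium channel adaptor, had 2.68 and 3.14 kb against 0, and NTNG2, a netrin, 2.28 and 2.81 kb against 0. GP1BB and its neighbour SEPTIN5 share the same peaks, 1.996 and 2.995 kb against 0, and count as 1 locus. The libraries of the 2 marks did not overlap at these genes, and vehicle cells had no H3K27ac at any of the 8 either. SMAD3 covered 3.46 and 2.33 kb at STAC3, but 0.16 to 1.06 kb in the libraries that had a peak at the other genes outside NTNG2, where both were at 0.

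**Figure D4:**
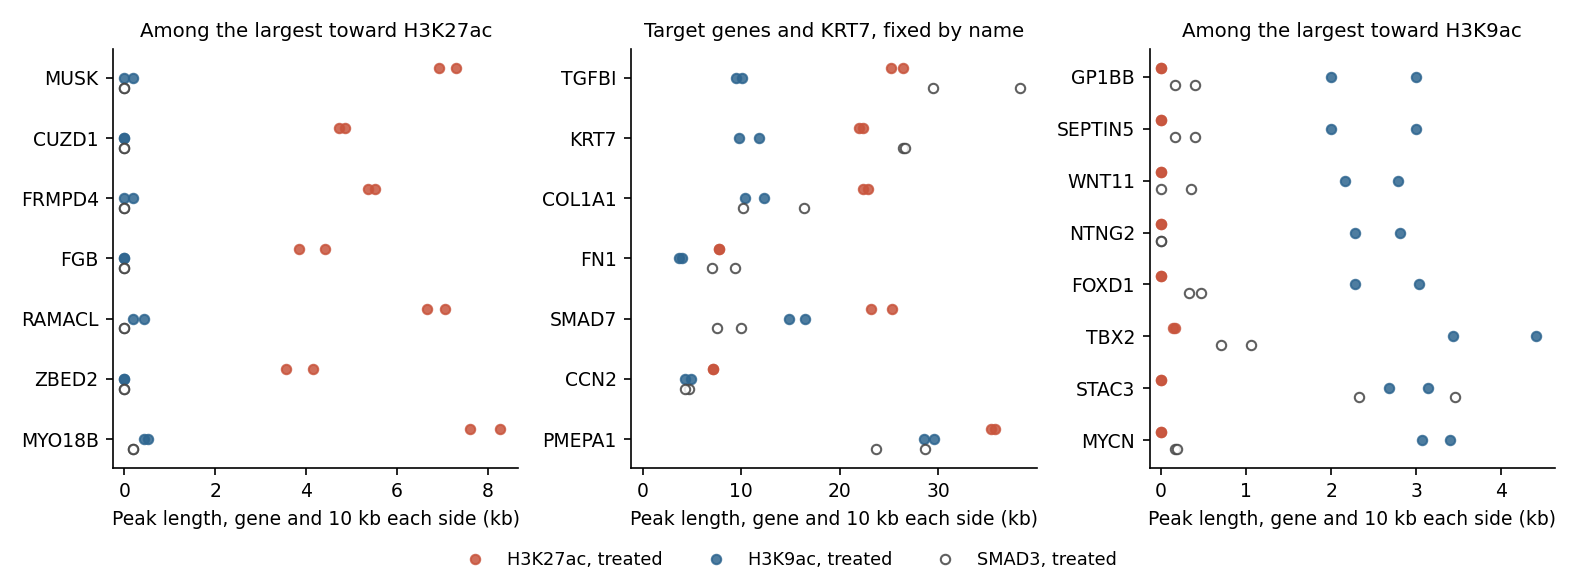
Peak length in kb over each gene and 10 kb on each side in TGF beta-treated cells, with 1 point per library (filled, H3K27ac and H3K9ac; open, SMAD3). The left and right panels hold genes among those with the largest differences toward each mark, where the other mark lies at or near 0; in the middle panel, of target genes and KRT7, both marks are long and H3K27ac lies above H3K9ac.

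Most TGF beta target genes, though not all, were called toward H3K27ac. TGFBI, a secreted adhesion protein induced by TGF beta (chromosome 5, 136028988 to 136063818), had 26.4 and 25.2 kb of H3K27ac, 9.46 and 10.1 kb of H3K9ac and 38.2 and 29.4 kb of SMAD3 (log2 difference 1.27, SE 0.0691, limma adjusted p = 1.51e-05), with 8 regions of both marks and 17 of H3K27ac only nearest to it. SMAD7, the inhibitory SMAD, had 25.3 and 23.2 kb against 14.8 and 16.4 kb (log2 difference 0.53, SE 0.0723, limma adjusted p = 7.04e-04). At PMEPA1, a feedback inhibitor, the marks were closer, 35.8 and 35.4 kb against 28.6 and 29.5 kb (log2 difference 0.20, limma adjusted p = 0.0399), and each of the 4 fits that dropped 1 library lost that call (adjusted p 0.0639 to 0.162), as did the replicate block (0.0614). Of the list of TGF beta and SMAD genes, 19 of 28 tested members were called toward H3K27ac and 3 toward H3K9ac, with a median log2 difference of 0.30, against 32.3% and 36.7% of all genes tested and a median of -0.08. Of the 25 with a start sequence, 24 were classed with both marks by their starts, against 63.1% of all genes classed. The receptor gene TGFBR2 had the largest difference of the list (22.5 and 23.1 kb against 4.92 and 6.62 kb; log2 difference 1.82, limma adjusted p = 1.69e-05), followed by NEDD9, a focal adhesion scaffold (45.8 and 45.7 kb against 13.0 and 15.2 kb). LDLRAD4, SMAD4 and TGFB1I1 were called toward H3K9ac, and 6 members were not called. LDLRAD4 had 0.363 and 0.217 kb of H3K27ac against 0.954 and 1.49 kb of H3K9ac.

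Matrix, integrin and YAP target genes were called toward H3K27ac in 84.6%, 78.6% and 80% of tested members, against 32.3% of all genes. Of the matrix and collagen genes, 22 of 26 tested members were called toward H3K27ac and 1 toward H3K9ac (median 0.72), the latter COL6A1. COL1A1, the type I collagen alpha 1 chain, had 22.4 and 22.9 kb against 10.4 and 12.3 kb (log2 difference 0.88, limma adjusted p = 8.75e-05), FN1, fibronectin, 7.79 and 7.73 kb against 3.70 and 3.96 kb (log2 difference 0.85, limma adjusted p = 6.85e-05), and COL4A2, a basement membrane collagen, 30.3 and 31.1 kb against 9.72 and 10.54 kb. LAMA3 had the largest difference of the list, 9.61 and 9.01 kb against 1.67 and 1.72 kb (log2 difference 2.07, limma adjusted p = 6.17e-06). Of the integrin and cytoskeleton genes, 22 of 28 tested members were called toward H3K27ac and 1 toward H3K9ac (median 0.46), the latter ITGB4, whose direction turned with 50 kb on each side, with TNS3 at 107 and 103 kb against 30.5 and 34.2 kb and ITGB3, the integrin beta 3 chain, at 24.1 and 23.7 kb against 5.77 and 7.74 kb. Of the YAP targets, 16 of 20 tested members were called toward H3K27ac and 2 toward H3K9ac (median 0.77). LATS2, the kinase that restrains YAP, had 18.8 and 18.8 kb against 3.43 and 3.19 kb (log2 difference 2.25, limma adjusted p = 7.10e-06), and CCN2, connective tissue growth factor, 7.10 and 7.10 kb against 4.29 and 4.90 kb. The median gene lengths of these 3 lists were 74.0, 57.1 and 70.0 kb, against 29.4 kb over all genes tested.

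Secreted and inflammatory factors and AP-1 genes were called toward H3K27ac in 60% and 52.2% of tested members, against 32.3% of all genes, and toward H3K9ac in 20% and 26.1%, against 36.7%. The genes on these lists are short (median lengths 8.19 and 7.17 kb). Of the secreted factors, 12 of 20 tested members were called toward H3K27ac and 4 toward H3K9ac (median 0.70). CSF2, a macrophage growth factor, had 3.71 and 3.45 kb against 0.802 and 1.09 kb. FST, the activin antagonist follistatin, lay at the other end with 2.60 and 3.31 kb of H3K9ac and 0 and 0.575 kb of H3K27ac (log2 difference -2.32, limma adjusted p = 7.99e-04). CXCL8, CCL2 and IL1B had no peak of either mark in any of the 4 libraries. Of the AP-1 and immediate early genes, 12 of 23 tested members were called toward H3K27ac and 6 toward H3K9ac (median 0.23). BATF had 10.2 and 10.3 kb of H3K27ac against 0.886 and 1.12 kb of H3K9ac (log2 difference 2.75, limma adjusted p = 6.17e-06), and its relative BATF3 the reverse, 0.148 and 0 kb against 1.81 and 1.95 kb (log2 difference -2.15, limma adjusted p = 1.50e-05). FOSL2 was called toward H3K27ac and the immediate early genes EGR1, EGR2, EGR3 and FOS toward H3K9ac. Of the genes of interferon response, 11 of 22 tested members were called toward H3K27ac and 2 toward H3K9ac (median 0.24, and -0.06 with 50 kb on each side), or 50% and 9.09%.

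Of the genes of epithelial-mesenchymal transition, 35.7% were called each way, near the shares over all genes (32.3% toward H3K27ac and 36.7% toward H3K9ac). 5 of 14 tested members were called toward H3K27ac and 5 toward H3K9ac (median 0.09). CDH2, N-cadherin, had 20.9 and 20.05 kb against 7.75 and 9.60 kb (log2 difference 1.11, limma adjusted p = 4.49e-05), and ETS1, an ETS factor, 28.5 and 28.7 kb against 9.34 and 11.3 kb. The transcription factors SNAI1, ZEB1 and ZEB2 were called toward H3K9ac, SNAI1 with 2.13 and 2.53 kb of H3K9ac against 1.11 and 1.45 kb (log2 difference -0.76, limma adjusted p = 9.47e-04), a direction that turned with 50 kb on each side. Of the junction genes, 16 of 25 tested members were called toward H3K27ac and 4 toward H3K9ac (median 0.42). CDH1, E-cadherin, led them with 20.3 and 19.6 kb against 4.36 and 5.33 kb (log2 difference 1.86, limma adjusted p = 7.59e-06), with 6 regions of both marks and 12 of H3K27ac only. OVOL2, a repressor of mesenchymal genes, had 1.23 and 1.505 kb of H3K9ac and no H3K27ac.

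Respiratory chain and proteasome genes, which every cell uses, were called toward H3K9ac in 60.7% and 48.4% of members, above the 36.7% of all genes. Ribosomal protein genes were called toward it in 29.6%, below that share, and toward H3K27ac in 9.86%. All respiratory chain (51), proteasome (26) and ribosomal protein genes (58) with a start sequence were classed with both marks by their starts. Of all genes classed, 63.1% were. Of the respiratory chain genes, 6 of 61 tested members were called toward H3K27ac and 37 toward H3K9ac (median -0.35). NDUFS3, a complex I subunit, had 1.74 and 1.38 kb of H3K27ac against 2.64 and 2.81 kb of H3K9ac (log2 difference -0.74, limma adjusted p = 4.85e-04), while UQCRC1, a complex III subunit, went the other way with 10.9 and 11.7 kb against 4.93 and 5.27 kb. Of the proteasome genes, 6 of 31 tested members were called toward H3K27ac and 15 toward H3K9ac (median -0.20). Of the cytosolic ribosomal protein genes, 7 of 71 tested members were called toward H3K27ac and 21 toward H3K9ac (median -0.13), and 43 were not called. RPL38 had the largest difference of these toward H3K9ac, 2.09 and 2.17 kb against 4.27 and 4.88 kb (log2 difference -1.03, limma adjusted p = 3.74e-05). Without centring the 3 lists had 29, 10 and 12 calls toward H3K9ac. Of the cell cycle genes, 8 of 30 tested members were called toward H3K27ac and 9 toward H3K9ac (median -0.09, near the -0.08 of all genes). Replication-dependent histone genes stand in a shared cluster and mostly share their windows. Of these, 9 of 28 (32.1%) were called toward H3K27ac, near the 32.3% of all genes, and 0 toward H3K9ac. With 50 kb on each side, 0 of 28 were called toward H3K27ac and 7 toward H3K9ac. At that window 7394 of all 16501 genes tested were called toward H3K9ac.

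**Figure D5:**
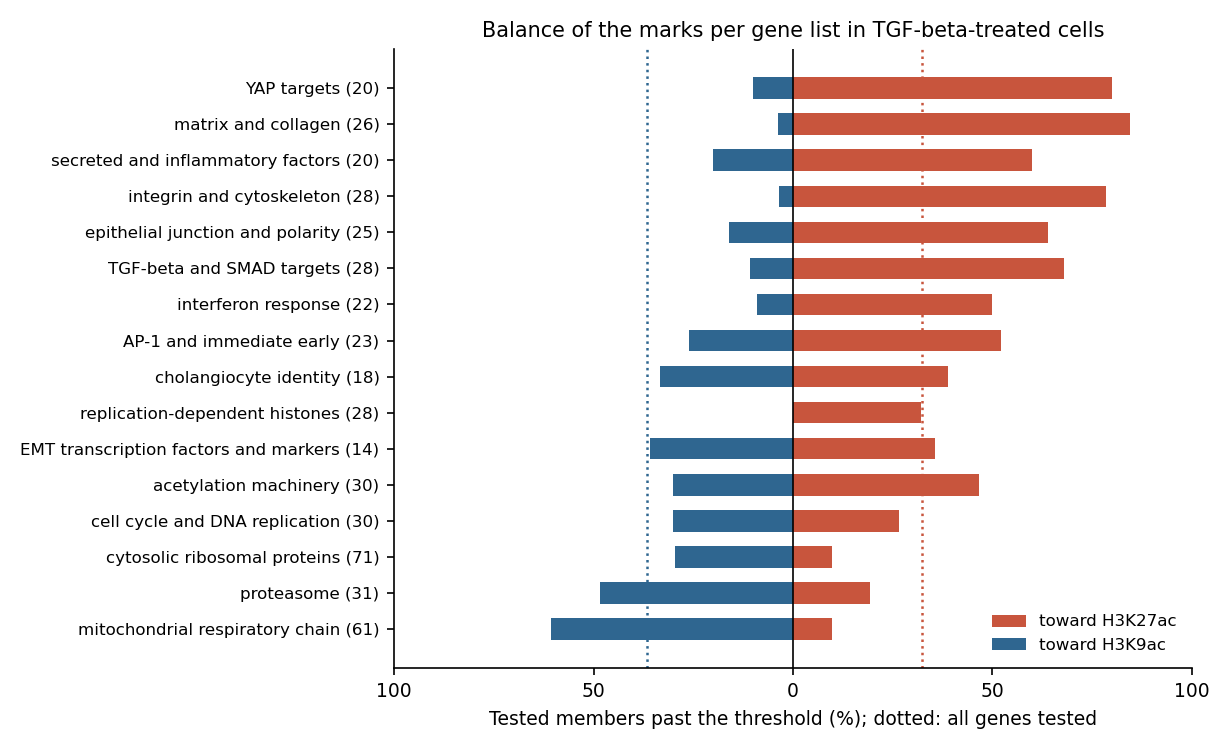
Share of the tested members (%) of each list called toward H3K27ac (right) or toward H3K9ac (left) in TGF beta-treated cells, for the lists with at least 10 tested genes, ordered by median difference; the number tested is in brackets and dotted lines give the shares over all genes (32.3% and 36.7%). Matrix and collagen genes extend to 84.6% on the right and respiratory chain genes to 60.7% on the left.

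The cell type was checked on markers. Of the cholangiocyte genes, 7 of 18 tested members were called toward H3K27ac and 6 toward H3K9ac (median 0.16). These shares of 38.9% and 33.3% are near those over all genes (32.3% and 36.7%). SPP1 and CFTR were at 0 in all 4 libraries. KRT7 and KRT19, the duct keratins, had 21.96 and 22.4 kb and 6.38 and 5.07 kb of H3K27ac against 9.73 and 11.8 kb and 2.10 and 2.73 kb of H3K9ac (log2 difference 0.93, limma adjusted p = 8.18e-05; log2 difference 1.01, limma adjusted p = 3.00e-04). The biliary transcription factor SOX9 was called toward H3K9ac (1.56 and 1.51 kb against 2.43 and 2.90 kb; log2 difference -0.72, limma adjusted p = 1.69e-04), and ONECUT1 and ONECUT2 carried H3K9ac alone, 1.18 and 1.41 kb and 1.23 and 1.99 kb. Summed over the 22 cholangiocyte genes H3K27ac covered 134.8 to 136 kb and H3K9ac 96.0 to 111 kb. The sums were 24.4 to 24.5 and 11.4 to 13.1 kb over 16 hepatocyte markers (ALB, TTR and HP at 0), 55.1 to 56.1 and 25.9 to 30.9 kb over 12 mesenchymal and endothelial markers (DCN at 0), 31.3 to 31.9 and 20.3 to 23.2 kb over 12 leukocyte markers (CD3D, MS4A1 and ITGAM at 0), and 39.9 to 40.1 and 26.2 to 29.2 kb over 14 neuronal markers (6 at 0). H3K27ac was above H3K9ac in every one of these sums, and the part of other cell types in the results was not tested. Of the 39 HOX genes, 24 were at 0 in all 4 libraries, and HOXB2 and HOXB3, the 2 tested, were called toward H3K9ac.

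The genes of the 4 acetyltransferases carried both marks, with differences under 1 on the log2 scale. EP300 and CREBBP, which encode the H3K27 acetyltransferases, had 2.38 and 2.45 kb of H3K27ac against 2.97 and 3.55 kb of H3K9ac (log2 difference -0.45, limma adjusted p = 0.00187) and 4.02 and 4.11 kb against 4.14 and 4.81 kb (log2 difference -0.21, limma adjusted p = 0.0392). KAT2A and KAT2B, which encode the H3K9 acetyltransferases, had 5.99 and 6.77 kb against 4.12 and 5.21 kb (log2 difference 0.33, limma adjusted p = 0.0222) and 4.01 and 4.11 kb against 2.19 and 1.94 kb (log2 difference 0.75, limma adjusted p = 7.06e-04). The CREBBP call did not hold in any of the 4 fits with 1 library dropped (adjusted p 0.0619 to 0.155), with the replicate block (0.0529), with equal peak numbers (0.102), without centring (log2 difference -0.12, 0.357) or with 2.5 kb on each side (-0.09, 0.353). The KAT2A call was lost with equal peak numbers (log2 difference 0.14, adjusted p = 0.227), with scores of at least 5 (0.0762), and without H3K27ac replicate 2 (0.0779) or H3K9ac replicate 1 (0.128), and the KAT2B call with 50 kb on each side (0.371). Of the whole list of acetylation genes, 14 of 30 tested members were called toward H3K27ac and 9 toward H3K9ac (median 0.02). Of the readers, YEATS2 was called toward H3K27ac, and MLLT3 and BRD2 toward H3K9ac.

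The balance between the marks was then compared with that in vehicle cells, by the treated difference minus the vehicle difference over 8 libraries. Of 14466 genes, 784 (5.42%) moved toward H3K27ac with treatment and 288 (1.99%) toward H3K9ac by limma at an adjusted p under 0.05. Among matrix genes 7 of 26 moved toward H3K27ac: MMP2, TNC, LAMA3, COL18A1, COL4A1, COL1A2 and FN1. FN1 had 7.79 and 7.73 kb of H3K27ac in treated and 3.57 and 3.98 kb in vehicle cells, and 3.70 and 3.96 kb and 3.23 and 2.71 kb of H3K9ac (log2 term 0.45, limma adjusted p = 0.0329). COL1A2, the type I collagen alpha 2 chain, had 2.16 and 2.15 kb of H3K27ac in treated and 0.498 and 0.483 kb in vehicle cells, and 1.99 and 2.03 kb and 1.08 and 0.911 kb of H3K9ac (log2 term 0.49, limma adjusted p = 0.0254). At LAMA3 H3K27ac was longer in treated cells (9.61 and 9.01 kb against 7.92 and 8.12 kb) and H3K9ac shorter (1.67 and 1.72 kb against 3.08 and 2.81 kb; log2 term 0.67, limma adjusted p = 0.00625). TNS1, a tensin, had 11.2 and 11.98 kb of H3K27ac against 0.707 and 0.424 kb and 5.08 and 6.38 kb of H3K9ac against 1.89 and 1.14 kb (log2 term 1.68, limma adjusted p = 0.00583).

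Of the TGF beta list, 1 gene of 27 moved each way. SKI, a corepressor of SMADs, moved toward H3K27ac (log2 term 0.66, limma adjusted p = 0.00707), and PMEPA1 toward H3K9ac (log2 term -0.62, limma adjusted p = 0.00989), with 28.6 and 29.5 kb of H3K9ac in treated against 17.2 and 14.7 kb in vehicle cells and 35.8 and 35.4 kb of H3K27ac against 26.3 and 26.8 kb. SCTR, the secretin receptor of bile ducts, moved toward H3K27ac with 8.98 and 9.61 kb against 1.77 and 2.13 kb of it (log2 term 0.94, limma adjusted p = 0.0227), as did the growth factor PDGFA (log2 term 0.91, limma adjusted p = 0.00376) and SNAI1 (log2 term 0.66, limma adjusted p = 0.0427). CXCL1, a neutrophil chemokine, and WNT5B moved toward H3K9ac (log2 term -0.48, limma adjusted p = 0.0226; log2 term -0.87, limma adjusted p = 0.0173).

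These counts were unsteady. Without centring, which moved the median term from -0.02 to 0.16, they were 1086 and 74, so that 93.6% rather than 73.1% of calls went toward H3K27ac. The count toward H3K27ac was 484 without treated H3K27ac replicate 1, 381 without treated H3K27ac replicate 2, 387 without treated H3K9ac replicate 1 and 485 without vehicle H3K9ac replicate 1. The count toward H3K9ac was 178, 136 and 111 without the first 3 of these, 131 without treated H3K9ac replicate 2 and 165 without vehicle H3K9ac replicate 2. A fit with lane 7 libraries only was an alternative chosen after seeing the data. It holds 1 treated library of each mark and takes its spread from the vehicle libraries alone. Only its log2 terms are given, and whether calls hold within 1 lane cannot be judged from it. All 31 list members called in the comparison with vehicle kept their sign there. They had been called with these libraries included, so this adds no separate support. The lane 7 term was 1.11 at MMP2 and 1.12 at SCTR. At the other list members named above it was 0.41 (FN1) to 1.70 (TNS1) toward H3K27ac, and -0.52 (CXCL1) to -0.94 (WNT5B) toward H3K9ac. Without centring PMEPA1, CXCL1 and WNT5B were no longer called toward H3K9ac (0.0877, 0.169 and 0.0623). Dropping 1 library left 13 to 24 of the 31 called, the fewest without treated H3K27ac replicate 2.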

How the data were processed

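12 deposited peak lists of ChIP-seq libraries were used (BED files on hg38), 4 each of H3K27ac, H3K9ac and SMAD3, treated and vehicle. Per the submitters' processing notes BWA, Picard, MACS2 and bedtools were used on hg38, with no version named. The score of each peak is a -log10 p or q value written by the authors with MACS2, which of them is not stated, and served here for ranking within 1 library only. Counts of reads were not used, so depth is unknown, and the 4 input libraries were not analysed here.

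Peaks on the 22 autosomes and X were kept (32 to 66 per library on other sequences were left out in treated cells). Peaks of the 4 treated libraries were merged at an overlap of 1 base and classed by library. Starts were RefSeq starts (GRCh38.p14, the patch release of the same build) of 15811 of 19970 protein-coding genes, with a window of 1 kb; 4159 genes had no start sequence. For genes, peak length within the gene and 10 kb around it was tested with limma 3.58.1 (R 4.3.3) on log2(bases + 500), for genes with a mean of at least 500 bases, with the 4 treated libraries alone or, for the comparison with vehicle, all 8; p-values were adjusted by Benjamini-Hochberg at 0.05. Regions were assigned to the nearest gene within 50 kb. Python 3.11.15 served for the rest. On simulated data 45 of 50 genes changed by 1 on the log2 scale were called, 11 of 50 changed by 0.5, and 0 of 13874 unchanged genes. The simulation held 14074 genes, all covered in the 4 treated libraries, and most were left unchanged. In the data 9966 of 14441 genes were called between the marks, so these rates cannot be carried over to that fit.

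The replicate numbers of treated libraries share a sequencing lane per the file headers, while vehicle libraries of both marks share lane 7. Deviations of same-numbered treated libraries correlated at -0.0120. The classes, the 21 gene lists (585 entries, all matched) and the rule for named genes (the largest differences each way, the highest-scoring starts of each class, the most regions per gene, fixed genes, and the largest differences of each list) were chosen with earlier results of these data known. Some genes that the rule names are not reported here. Alternatives covered the merging, the start and gene windows, pseudocount, filter, centring, peak number, score, replicate block and leaving out each library.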

Additional observations from a re-analysis of the deposited data

Results flagged for a closer look

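At 10 genes, the 5 with the largest changes each way, the difference between the marks in treated cells differed from that in vehicle cells in the test over 8 libraries. Moving toward H3K27ac, SHISAL2A had 5.49 and 6.73 kb of H3K27ac and 0.762 and 1.24 kb of H3K9ac in treated cells, and 0 and 0 kb and 0.589 and 0.461 kb in vehicle cells (log2 term 3.002, limma adjusted p = 1.42e-04). P4HA3, a collagen prolyl hydroxylase subunit, had 4.20 and 4.61 kb of H3K27ac and 0.978 and 1.31 kb of H3K9ac in treated cells, and 0 and 0 kb and 0.482 and 0.378 kb in vehicle cells (log2 term 2.29, limma adjusted p = 1.42e-04). HAPLN3, a hyaluronan-binding link protein, had 6.27 and 5.82 kb of H3K27ac and 2.99 and 3.52 kb of H3K9ac in treated cells, and 0.152 and 0 kb and 1.43 and 1.43 kb in vehicle cells (log2 term 2.38, limma adjusted p = 4.85e-04). CREG2 had 2.19 and 2.69 kb of H3K27ac and 0.660 and 0.742 kb of H3K9ac in treated cells, and 0 and 0.159 kb and 0.855 and 0.815 kb in vehicle cells (log2 term 2.32, limma adjusted p = 4.36e-04). GUCA1B, a guanylate cyclase activator, had 3.05 and 3.29 kb of H3K27ac and 0 and 0 kb of H3K9ac in treated cells, and 0.539 and 0.429 kb and 0.210 and 0.188 kb in vehicle cells (log2 term 2.20, limma adjusted p = 1.43e-04).

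Moving toward H3K9ac, ST6GALNAC1, a sialyltransferase, had 0 and 0 kb of H3K27ac and 0 and 0 kb of H3K9ac in treated cells, and 2.17 and 2.43 kb and 0 and 0 kb in vehicle cells (log2 term -2.67, limma adjusted p = 3.45e-05), so that the change was a loss of called H3K27ac alone. FGA, the fibrinogen alpha chain, had 0.437 and 0.816 kb of H3K27ac and 0 and 0 kb of H3K9ac in treated cells, and 2.47 and 2.67 kb and 0 and 0 kb in vehicle cells (log2 term -1.65, limma adjusted p = 0.00344). SGCE, a sarcoglycan, had 1.65 and 1.71 kb of H3K27ac and 2.09 and 1.998 kb of H3K9ac in treated cells, and 5.66 and 7.10 kb and 2.70 and 2.59 kb in vehicle cells (log2 term -1.53, limma adjusted p = 7.12e-04). GUCY1A2, a guanylate cyclase subunit, had 0.346 and 0.186 kb of H3K27ac and 0.5 and 0.551 kb of H3K9ac in treated cells, and 0.974 and 1.24 kb and 0.484 and 0.144 kb in vehicle cells (log2 term -1.62, limma adjusted p = 0.00502). TMOD1, an actin-capping tropomodulin, had 0 and 0 kb of H3K27ac and 0.764 and 0.963 kb of H3K9ac in treated cells, and 1.76 and 0.933 kb and 1.96 and 1.26 kb in vehicle cells (log2 term -1.42, limma adjusted p = 0.0219). With lane 7 libraries only, which leaves 1 treated library of each mark, the log2 term was -1.39 at TMOD1 and -1.51 at GUCY1A2. All vehicle libraries of the marks ran on lane 7, and the part of the lane in these changes was not tested. ST6GALNAC1, FGA and GUCY1A2 passed the filter of a mean of at least 500 bases only through their vehicle H3K27ac. GUCA1B passed it only through its treated H3K27ac. The filter thus drew on the same values as the terms, which are no separate support at these genes. Groups of 2 libraries were too small to look for single outlying libraries.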

How the results depend on the processing

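Peak length carries no read depth, so small differences in peak strength could not be seen, and 2 libraries per group limit every p-value. With equal peak numbers, 11378 regions (2.35% near a start) and 34 genes carried H3K27ac only. With peaks up to 500 bases apart merged there were 21242 regions with both marks, 11968 with H3K27ac only (1.65% near a start) and 2438 with H3K9ac only. Requiring 20% of a region to be covered put 56.7% of both-mark regions near a start. A start window of 2.5 kb gave 56.0%, 6.87% and 59.3% (both, H3K27ac only, H3K9ac only) and 106 genes with H3K27ac only. Without centring, 3328 genes were called toward H3K9ac and 74 in the comparison with vehicle, and with lane 7 only, chosen after seeing the data, 204 and 43. Leaving out 1 library gave 47.9% to 51.3% of both-mark regions near a start, 29985 to 48198 H3K27ac-only regions (2.78% to 3.31% near a start), 4608 to 7665 H3K9ac-only regions (37.4% to 45.3%), and, against vehicle, 381 to 711 genes toward H3K27ac and 111 to 245 toward H3K9ac. With a gene window of 2.5 kb the sign turned for CDK4 (0.0305), GDF15 (-0.49) and HAPLN3 (-0.33), and with 50 kb for HOXB2 (0.0444), HOXB3 (0.11), ITGB4 (0.64), KDR (0.37) and SNAI1 (0.27). The cause was not tested, apart from the fewer libraries in the fits that left some out. The replicate block gave 4614 and 5083 genes between the marks and 702 and 235 against vehicle; of the 134 named genes tested between the marks it lost the calls of PMEPA1 and CREBBP.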

Other observations

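Markers of other cell types went both ways. Of 7 leukocyte markers tested, 3 were called toward H3K27ac and 2 toward H3K9ac (42.9% and 28.6%, against 32.3% and 36.7% of all genes). CSF1R was singled out because it gained both marks at its start. Over the gene and 10 kb on each side it had 8.63 and 9.05 kb of H3K27ac and 1.28 and 1.66 kb of H3K9ac (log2 difference 2.17, limma adjusted p = 6.60e-06). The balance at CSF1R moved toward H3K27ac with treatment (log2 term 1.02, limma adjusted p = 0.0143). With lane 7 libraries only, which leaves 1 treated library of each mark, the term was 1.05. CD4 and CD14 were called toward H3K9ac (log2 difference -0.74, limma adjusted p = 1.75e-04; log2 difference -0.44, limma adjusted p = 0.00302). Of 9 mesenchymal and endothelial markers tested, 7 were called toward H3K27ac and 2 toward H3K9ac (77.8% and 22.2%), and of 8 hepatocyte markers 5 and 3 (62.5% and 37.5%, the latter near the share of all genes). KDR, a VEGF receptor, was called toward H3K9ac (log2 difference -1.73, limma adjusted p = 4.49e-05), a direction that turned with 50 kb on each side.

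H3K27ac-only regions were spread unevenly over chromosomes. There were 130.5 of them per 100 regions with both marks on chromosome 18 and 45.5 on chromosome 19, the highest and the lowest of all chromosomes used. H3K9ac-only regions varied less, from 10.7 to 15.5 per 100.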
